A study of Mus musculus with 2 samples.

Results

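The genes described here are 8 genes of the interleukin 1 axis and of inflammatory mediators, Il1a, Il1b, Il1rn, Il1r2, Nlrp3, Ptgs2, Il6 and Acod1. They were taken by symbol from the count matrices, where each matched 1 of 32285 listed genes. The cells came from islets isolated from the pancreas of the NOD mouse, an inbred strain whose islets are infiltrated by immune cells and which develops autoimmune diabetes, and were sequenced singly in droplets. Mice entered at 5 weeks of age and ate either the HAMSAB or the HAMS diet for 5 weeks. HAMS is known in the field as high-amylose maize starch, and HAMSAB as that starch with acetyl and butyryl groups attached, so both groups ate the starch. Each diet has 1 library, and the labels do not give the number of mice in it. No difference between the diets therefore has a replicate check or a test. Every interval is a 95% interval for counting error alone, and unique molecular identifiers (UMIs), which count captured RNA molecules, are the unit counted.

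Interleukin 1 alpha and interleukin 1 beta are cytokines that act through the type 1 interleukin 1 receptor, and interleukin 1 is known to be toxic to rodent beta cells in culture. The NLRP3 protein assembles an inflammasome in which caspase 1 cuts the interleukin 1 beta precursor before release. The product of Il1rn binds the receptor without signalling, and the product of Il1r2 is a decoy receptor that takes up interleukin 1. Ptgs2 encodes cyclooxygenase 2, the inducible enzyme of prostaglandin synthesis, Il6 encodes the cytokine interleukin 6, and Acod1 encodes the enzyme that makes itaconate in activated macrophages.

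In the GRCm38 annotation of GENCODE M21, all 8 are protein-coding. Il1b (chr2:129364570-129371139) and Il1a (chr2:129299610-129309972) are neighbours on the minus strand of chromosome 2, and Il1rn (chr2:24336853-24351494) lies on its plus strand. Il1r2 (chr1:40074079-40125231) and Ptgs2 (chr1:150100031-150108227) lie on chromosome 1, Il6 (chr5:30013114-30019981) on chromosome 5, Nlrp3 (chr11:59541568-59566956) on chromosome 11 and Acod1 (chr14:103046977-103056573) on chromosome 14, each on the plus strand. Genes on the opposite strand overlap Il1b (Il1bos), Il1a (Gm14023) and Il1r2 (Gm16894). Over all barcodes Il1bos had 5 UMIs in HAMSAB and 1 in HAMS, Gm14023 had 25 and 12, and Gm16894 had 0 and 1. Whether the counting used strand is not given in the sources used here, so UMIs of these pairs may not be fully told apart.

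Promoters are given for 4 of the genes, which did not all have their highest level in the same cell class described below. The 250 bases before the start of each are shown from RefSeq (GRCm38.p6). They are chr2:129371140-129371389 on the minus strand for Il1b, chr1:150099781-150100030 on the plus strand for Ptgs2, chr5:30012864-30013113 on the plus strand for Il6 and chr1:40085843-40086092 on the plus strand for Il1r2, each written 5′ to 3′ along the gene. Capitals mark the letters of an NF-kB-like pattern (GGGNNNNNCC) or a C/EBP-like pattern (TTNNGNAA) on either strand. These are binding patterns of transcription factors known to act in inflammatory cells.
Il1b: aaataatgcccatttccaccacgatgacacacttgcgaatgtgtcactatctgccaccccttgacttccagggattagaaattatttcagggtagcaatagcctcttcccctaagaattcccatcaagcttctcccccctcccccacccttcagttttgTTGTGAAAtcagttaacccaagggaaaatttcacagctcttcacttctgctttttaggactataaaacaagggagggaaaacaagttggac
Ptgs2: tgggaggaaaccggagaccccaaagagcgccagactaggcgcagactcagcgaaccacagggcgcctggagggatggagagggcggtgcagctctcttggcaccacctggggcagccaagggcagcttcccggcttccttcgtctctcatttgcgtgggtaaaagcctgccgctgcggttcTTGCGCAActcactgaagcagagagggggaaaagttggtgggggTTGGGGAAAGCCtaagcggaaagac
Il6: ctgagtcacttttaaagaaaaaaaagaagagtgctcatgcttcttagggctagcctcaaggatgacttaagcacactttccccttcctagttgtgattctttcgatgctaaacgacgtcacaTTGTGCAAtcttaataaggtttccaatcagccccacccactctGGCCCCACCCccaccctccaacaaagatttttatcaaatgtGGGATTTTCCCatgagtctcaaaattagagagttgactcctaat
Il1r2: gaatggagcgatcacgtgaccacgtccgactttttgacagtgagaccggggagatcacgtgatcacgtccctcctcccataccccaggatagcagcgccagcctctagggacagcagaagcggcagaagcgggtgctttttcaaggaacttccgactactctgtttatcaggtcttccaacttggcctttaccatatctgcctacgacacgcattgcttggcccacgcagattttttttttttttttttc
The NF-kB-like pattern occurred in 45.8% and the C/EBP-like pattern in 36.8% of all 32851 RefSeq promoter windows of this length. In Il6 the NF-kB-like pattern matched 3 times, with 2 of the matches overlapping, and the C/EBP-like pattern once. In Ptgs2 the NF-kB-like pattern matched once, overlapping 1 of 2 C/EBP-like matches. Il1b held 1 C/EBP-like match and a TATAAA beginning 31 bases before the start, a box present in 12.4% of windows. An AP-1-like pattern (TGANTCA, 6.75% of windows) and a CRE pattern (TGACGTCA, 1.55% of windows) were also searched, of which Il6 held 1 AP-1-like match. Il1r2 held none of these patterns in this window. The start used for Il1r2 lies inside the GENCODE gene. These matches describe letters only.

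The HAMSAB library held 5022 barcodes and 4254040 UMIs and the HAMS library 4352 barcodes and 3599756 UMIs. After the cell filters, 4628 HAMSAB and 4185 HAMS cells remained, at medians of 705 and 704 UMIs per cell, and the libraries shared 4 barcodes among kept cells. Cells were grouped into classes by clustering without the 8 genes and without 93 related pathway genes, so that no member set the class in which it is read. Classes were named from marker genes, and 12 had at least 20 cells in each library. The macrophage-like class (406 HAMSAB and 301 HAMS cells) was led by C1qb, C1qa and C1qc, which encode complement C1q. The conventional dendritic (cDC-like) class (965 and 706 cells) had 7 detected dendritic markers but none among its 10 leading genes. C1qa was nearly absent (3 and 6 UMIs). In CPM (defined below), the 8 general dendritic markers summed to 23841 and 24003, below the 28508 and 30435 of macrophage-like cells. Markers of the cDC2 subtype also summed lower than in macrophage-like cells, at 270 and 215 against 369 and 330 CPM. Mature dendritic markers summed higher (740 and 690 against 407 and 317 CPM). Flt3 (130 and 102 against 0 and 4.23 CPM) and Zbtb46 (73.7 and 143 against 24.1 and 8.45 CPM) were also higher. A further dendritic class (184 and 129 cells) carried the mature dendritic gene Fscn1 and the cDC1 gene Xcr1 and is called here the Fscn1 Xcr1 dendritic class. Of 8 neutrophil markers, 2 were detected in macrophage-like cells, summing to 8 UMIs in HAMSAB and 9 in HAMS and mostly Csf3r (7 and 8), while S100a8, S100a9 and Ly6g had 0 UMIs in all 3 classes.

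The 3 macrophage and dendritic classes made up 33.6% of HAMSAB and 27.1% of HAMS cells and held most UMIs of all 8 genes. They carried 94.7% of Il1b UMIs in HAMSAB and 94.0% in HAMS, 94.8% and 94.2% of Nlrp3 UMIs, and 95.2% and 94.7% of Ptgs2 UMIs. For Il1r2 they carried 90.1% and 86.4%, and for Acod1 82.5% and 87.9%. Il1rn had 74.0% in HAMSAB, the lowest there, and 87.6% in HAMS, and Il6 had 79.3% and 72.5%, the lowest in HAMS. Most of the remainder lay in ductal-like cells for Il1rn and in endothelial-like cells for Il6.

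**Figure D1:**
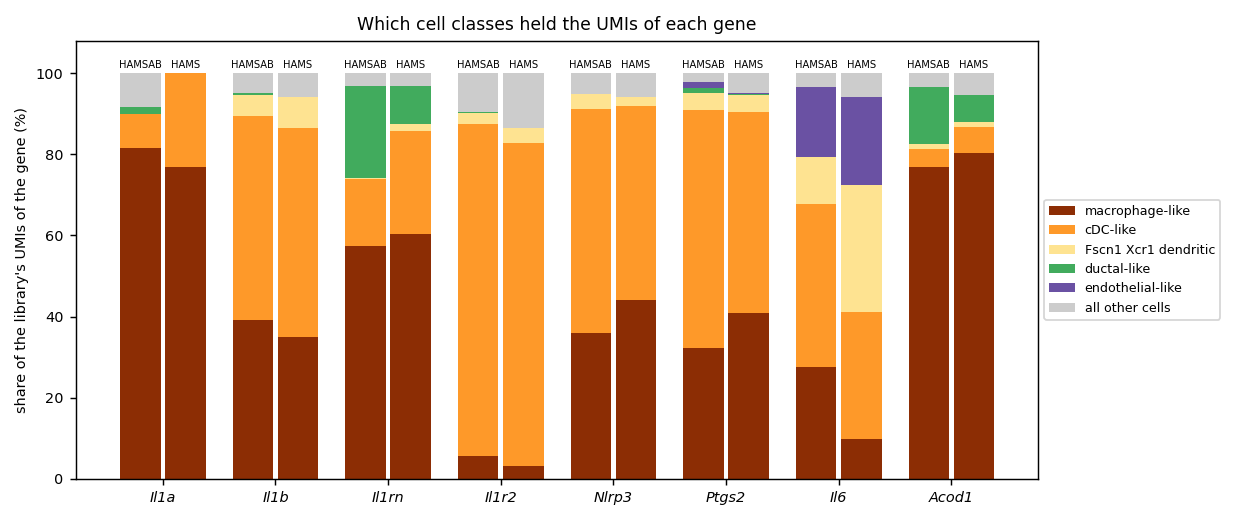
Share of each library's UMIs of a gene, in percent, held by each cell class, with HAMSAB left and HAMS right for each gene. Il1r2 UMIs sat mainly in cDC-like cells (81.7% in HAMSAB, 79.6% in HAMS), Acod1 UMIs mainly in macrophage-like cells, and 22.8% (HAMSAB) and 9.33% (HAMS) of Il1rn UMIs sat in ductal-like cells.

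Il1b was highest in macrophage-like cells, at 2767 CPM (UMIs scaled to a class total of 1000000; interval 2579 to 2965) in HAMSAB and 1978 CPM (1803 to 2166) in HAMS. The cDC-like class came next with 1522 CPM (1430 to 1618) and 1355 CPM (1256 to 1459), followed by the Fscn1 Xcr1 dendritic class with 519 CPM and 736 CPM. These 3 classes kept their order in both libraries, and their values did not overlap. At least 1 UMI of Il1b was seen in 59.9% of HAMSAB and 53.5% of HAMS macrophage-like cells, and in 36.5% and 38.8% of cDC-like cells. Beta-like cells, which should lack it, had a UMI in 2.18% and 0.813% of cells at median depths of 805.5 and 670 UMIs, against 641.5 and 696 UMIs in macrophage-like cells. The 13 Il1b UMIs of HAMSAB plasmacytoid dendritic (pDC-like) cells all came from 1 cell. Il1a was largely a macrophage-like transcript, with 169 CPM in HAMSAB and 42.3 CPM in HAMS, against 7.37 and 5.87 CPM in cDC-like cells and 0 UMIs in both libraries in the Fscn1 Xcr1 dendritic, T-like, beta-like, delta-like and endothelial-like classes.

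The natural brakes on interleukin 1 had their highest levels in different classes. Il1rn, the receptor antagonist, had 1182 CPM (1060 to 1314) in HAMSAB and 985 CPM (862 to 1120) in HAMS macrophage-like cells. Ductal-like cells were second, with 730 CPM (613 to 864) and 444 CPM (311 to 615), and cDC-like cells followed, with 145 and 192 CPM. Il1r2, the decoy receptor, had its highest level in cDC-like cells, at 525 CPM (472 to 583) in HAMSAB and 481 CPM (423 to 545) in HAMS. Macrophage-like cells had 86.2 and 42.3 CPM of Il1r2 and the Fscn1 Xcr1 dendritic class 59.3 and 80.2 CPM, so that these classes overlapped and their order differed between the libraries. Il1r2 was also the first of the genes that led the cDC-like cluster by fold, although it had no part in the clustering.

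Nlrp3, the inflammasome sensor, followed the order of Il1b. It had 476 CPM in HAMSAB and 321 CPM in HAMS macrophage-like cells, 311 and 160 CPM in cDC-like cells, and 69.2 and 29.2 CPM in the Fscn1 Xcr1 dendritic class. Ptgs2 had 1065 and 752 CPM in macrophage-like cells and 827 and 420 CPM in cDC-like cells, against 203 and 138 CPM in the Fscn1 Xcr1 dendritic class. HAMSAB cDC-like cells stood above HAMS macrophage-like cells, and the ranges of these classes overlapped. Acod1 was found mainly in macrophage-like cells, with 607 CPM in HAMSAB and 309 CPM in HAMS, and in ductal-like cells, with 172 and 74.1 CPM, while cDC-like cells had 14.8 and 11.7 CPM. Il6 was sparse, with 87 UMIs in the whole HAMSAB and 51 in the whole HAMS cell set.

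**Figure D2:**
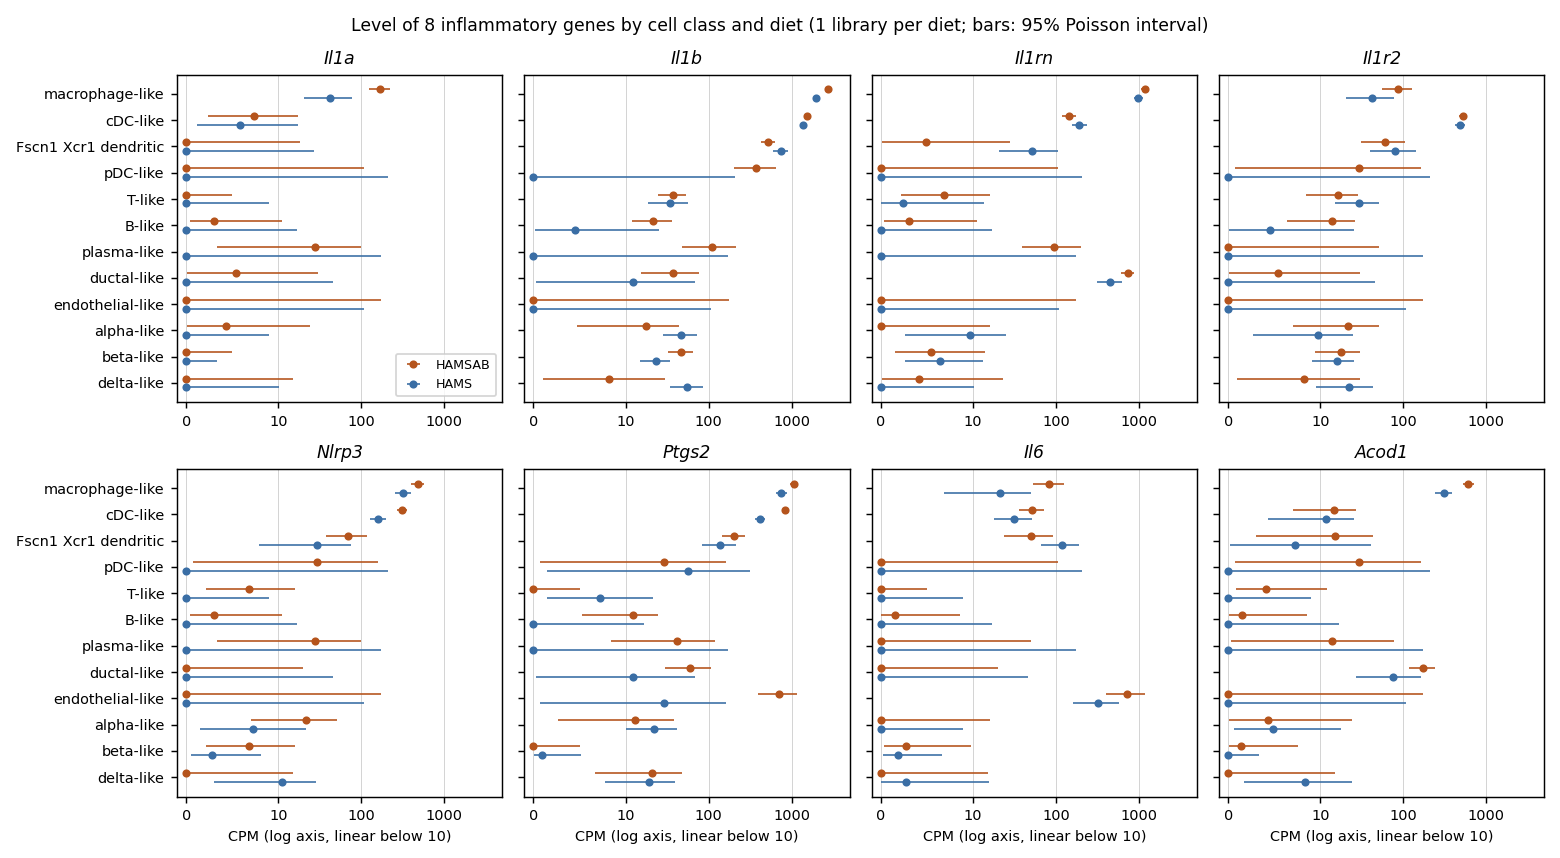
Level of each gene (CPM, on a log axis that is linear below 10) in the 12 cell classes, with HAMSAB points above HAMS points and exact Poisson intervals as bars. Il1b, Nlrp3 and Ptgs2 were high in macrophage-like and cDC-like cells, Il1r2 in cDC-like cells, Il1rn and Acod1 in macrophage-like and ductal-like cells, and Il6 in endothelial-like cells.

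Il6 had its highest level in the endothelial-like class, which also contains cells with the fibroblast collagen gene Col1a1. There it had 15 UMIs in 2 of 28 HAMSAB cells (709 CPM, interval 397 to 1169) and 11 UMIs in 3 of 57 HAMS cells (321 CPM, 160 to 574). Both HAMSAB cells with Il6 carried Col1a1 and none of the endothelial genes Pecam1, Cdh5, Kdr or Flt1, whereas none of the 3 HAMS cells carried Col1a1 and Flt1 was seen in 1. The class held 118 Col1a1 UMIs in HAMSAB and 8 in HAMS. Ptgs2 had 15 UMIs in 3 HAMSAB cells of this class, all with Col1a1, and 1 UMI in HAMS. The Il6 log2 ratio of HAMSAB over HAMS was 1.14 (−0.08 to 2.41), past the 2-fold mark that 9.76% of the 461 measured genes passed upward in this class. The part of cell makeup in that ratio was not tested.

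The comparison between the diets within a class asks whether the RNA of a cell type differed once its number of cells is set aside. It used the log2 ratio of CPM, HAMSAB over HAMS, for genes with 20 or more UMIs summed over the pair of libraries, which are called measured here. In macrophage-like cells all 8 genes were measured and all 8 ratios were above 0, as were 49.3% of the 3110 genes measured there. The median of the 8 was 0.77, against −0.01 over all measured genes. At least 2-fold higher in HAMSAB were 3 of the 8, Il1a, Il6 and Il1r2, where 4.76% of all measured genes were. These 3 were also the least counted of the 8. When cells were classed singly by their markers, in place of clusters, 1 of 7 measured passed that mark, as did 4.43% of all genes measured there.

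Il1a showed the largest macrophage ratio of the 8. It had 49 UMIs in 33 HAMSAB cells and 10 UMIs in 9 HAMS cells, a log2 ratio of 2.0 (1.0 to 3.15). Il6 had 24 UMIs in 12 HAMSAB cells and 5 UMIs in 2 HAMS cells, a log2 ratio of 1.97 (0.55 to 3.72). A single HAMSAB cell held 8 and a single HAMS cell 4 of these Il6 UMIs, and without both 1 HAMS UMI was left. Over 11 alternative settings the Il6 ratio lay between 0.38 and 3.71, and it was under 2-fold with each cell weighted equally (0.38) and with cells classed singly by their markers (0.88). Il1r2 had 25 UMIs in HAMSAB and 10 in HAMS, with a ratio of 1.03 whose interval (−0.08 to 2.25) includes 0, and with at least 500 genes required per cell its ratio turned to −0.41.

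The better counted genes lay closer together in macrophage-like cells. Acod1, the itaconate enzyme, had 176 UMIs in HAMSAB and 73 in HAMS and a log2 ratio of 0.98 (0.57 to 1.39), just under the 2-fold mark. Nlrp3 had 138 and 76 UMIs and a ratio of 0.57 (0.15 to 0.99), and Ptgs2 had 309 and 178 UMIs and a ratio of 0.50 (0.23 to 0.78). Il1b had 803 and 468 UMIs and a ratio of 0.48 (0.32 to 0.65), and Il1rn had 343 and 233 UMIs and a ratio of 0.26 (0.02 to 0.51). In all, 7 of the 8 intervals lay above 0, and the share of all measured genes with such an interval was not counted. Over 12 alternative settings each, the ratio lay between 0.26 and 1.21 for Il1b, 0.12 and 0.95 for Nlrp3, 0.19 and 2.03 for Ptgs2, and 0.84 and 1.49 for Acod1. Cells with a UMI of at least 2 of the 8 genes made up 61.1% of HAMSAB and 47.2% of HAMS macrophage-like cells.

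Other measures differed between the 2 sets of macrophage-like cells. The summed level of 8 monocyte markers, 7 of them detected, was 979 CPM in HAMSAB and 820 CPM in HAMS, and that of 10 macrophage markers was 4149 and 4738 CPM. The early response genes Fos, Jun, Egr1, Atf3, Dusp1 and Ier2, a list chosen after their values were seen, summed to 3728 CPM in HAMSAB and 5423 CPM in HAMS, and the median share of mitochondrial UMIs was 0.691% and 0.907%. Islet hormone RNA, which macrophage-like cells are not known to make, summed to 4263 and 4603 CPM. The part of these differences in the ratios was not tested. The authors' deposited table labelled mf, of 37 genes, lists 2 of the 8 genes, Acod1 with a log2 fold change of 0.71 (p = 1.76e-04, adjusted p = 1) and Il1b with 0.37 (p = 0.00599, adjusted p = 1). With 1 library per diet, the p-values in the authors' deposited table cannot be over libraries, and their test is not given in the sources used here.

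**Figure D3:**
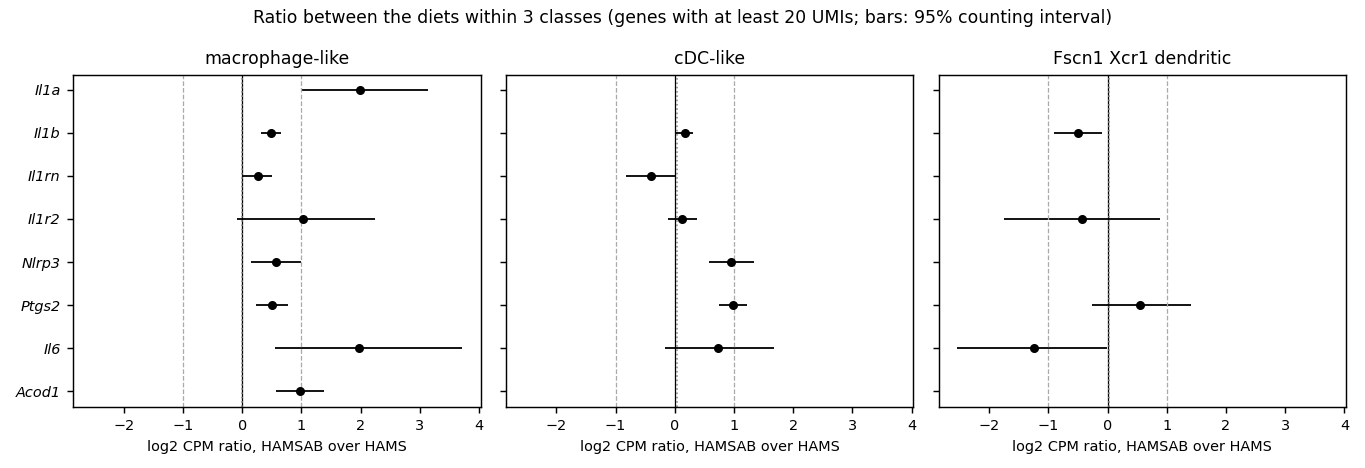
Log2 ratio of CPM, HAMSAB over HAMS, for genes with at least 20 UMIs in 3 classes, with counting intervals as bars, the 2-fold marks dashed and the median of all measured genes dotted. All 8 points lie right of 0 in macrophage-like cells, Ptgs2 and Nlrp3 lie near the upper 2-fold mark in cDC-like cells, and 3 of 4 points lie left of 0 in the Fscn1 Xcr1 dendritic class. Of all measured genes, 49.3% in macrophage-like cells and 52.9% in the Fscn1 Xcr1 dendritic class had ratios above 0.

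In cDC-like cells Ptgs2 and Nlrp3 had the highest ratios of the 6 measured genes. Differences between the genes were not tested. Ptgs2 had 561 UMIs in HAMSAB and 215 in HAMS (827 and 420 CPM), a log2 ratio of 0.98 (0.75 to 1.21), and was seen in 27.8% and 16.4% of cells. Nlrp3 had 211 and 82 UMIs (311 and 160 CPM), a ratio of 0.96 (0.58 to 1.34), and was seen in 16.4% and 10.3% of cells. About 5% of measured genes in the class had ratios as high, 4.82% for Ptgs2 and 4.97% for Nlrp3. None of the 6 measured genes passed 2-fold, where 4.6% of 4830 genes passed it upward and 3.08% downward, but Ptgs2 and Nlrp3 stood just under it. In cells thinned to 500 UMIs, 3 of the 6 passed upward, as did 5.57% of the 3409 genes measured there.

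The other 4 measured genes had ratios nearer 0 in cDC-like cells, Il6 excepted. Il1b had a log2 ratio of 0.17 (0.03 to 0.31) and Il1r2 one of 0.13 (−0.11 to 0.37), close to the class median of 0.04. Il6 had 35 UMIs in HAMSAB and 16 in HAMS and a ratio of 0.72 (−0.17 to 1.68). Il1rn had 98 UMIs in each library and, on the larger HAMSAB total, a ratio of −0.41 (−0.83 to 0.01), the only 1 of the 6 below 0. At the finer clustering described next, which moved 1 part out of the class, the Il1rn ratio was 0.067 (−0.66 to 0.81). Hormone RNA in these cells summed to 939 CPM in HAMSAB and 1552 CPM in HAMS, and the early response genes to 1824 and 1998 CPM. Without the 10% of immune cells with the most hormone UMIs, the Ptgs2 ratio was 0.86 and that of Nlrp3 was 0.90.

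Finer clustering, again without the 8 genes, split the cDC-like class into 4 parts, a split added after the data were seen. A part led by Fscn1, H2-M2 and Ccr7, the receptor that guides dendritic cells to lymph nodes, held 245 HAMSAB and 143 HAMS cells of the class. At this finer setting its cluster scored higher for mature dendritic markers than for cDC markers, and it is read here as part of the cDC-like class only because the coarser clustering placed these cells there. It had the highest Ptgs2, at 1383 CPM in HAMSAB and 949 CPM in HAMS, the highest Nlrp3, at 496 and 274 CPM, and the highest Il1rn, at 343 and 666 CPM. Il1b was high there, at 2624 and 2090 CPM, and in a part led by Adap2 (94 and 98 cells), at 1925 and 2133 CPM. A part led by Ifitm1 and Nccrp1 (294 and 179 cells) had the highest Il1r2, at 671 and 626 CPM, but only 918 and 787 CPM of Il1b. The part led by Mndal and Gm2a (323 and 282 cells) had the lowest Il1r2, at 313 and 370 CPM.

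By CPM, Ptgs2 and Nlrp3 were higher in HAMSAB in each of the 4 parts. The Ptgs2 log2 ratio was 0.54 (0.21 to 0.89) in the Fscn1 part, 0.67 (−0.11 to 1.47) in the Adap2 part, 0.97 (0.49 to 1.48) in the Ifitm1 part and 1.44 (0.90 to 2.0) in the Mndal part. The Nlrp3 ratio was 0.86, 0.54, 0.94 and 1.09 in the same parts. All 8 values were above 0, and the interval of each gene in the Adap2 part included 0. The parts hold cells of the class in which these genes had the highest ratios, so their signs are no separate check. The share of all genes above 0 in each part was not counted. In that part Nlrp3 was seen in 14.9% of HAMSAB and 15.3% of HAMS cells. The lower Il1rn of HAMSAB cells was seen in the Fscn1 part, with 65 UMIs in HAMSAB and 73 in HAMS and a ratio of −0.96 (−1.46 to −0.45), while the Mndal part had 10 and 4 UMIs and a ratio of 1.21 (−0.58 to 3.34). Il1b had ratios of 0.33 (0.10 to 0.56) in the Fscn1 part and −0.15 (−0.49 to 0.20) in the Adap2 part.

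**Figure D4:**
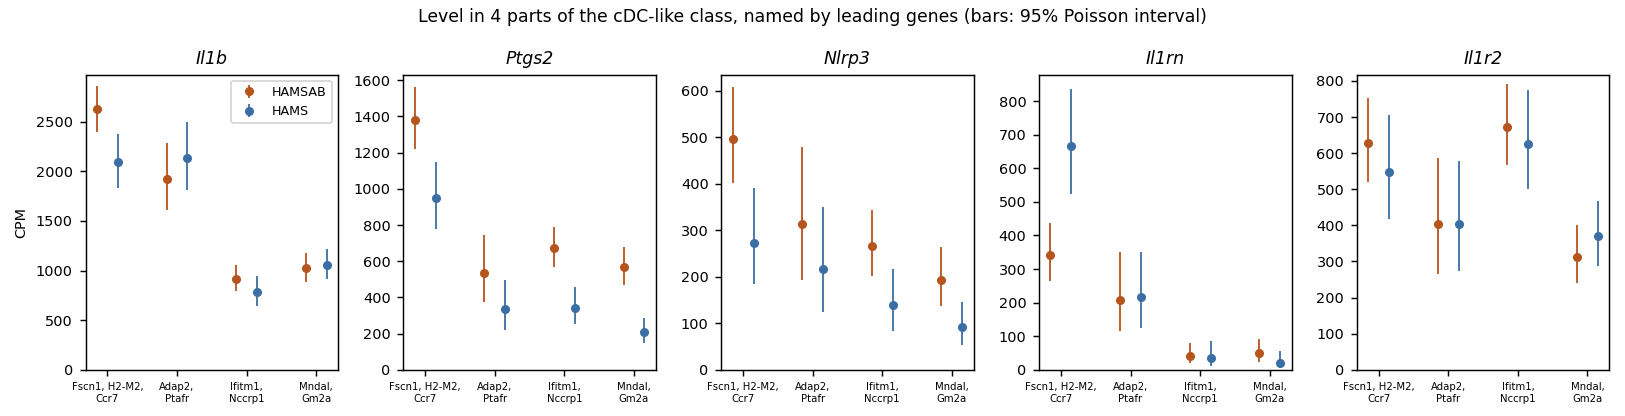
Level (CPM) of 5 genes in 4 parts of the cDC-like class, each named by its leading genes, with HAMSAB left and HAMS right and exact Poisson intervals as bars. Ptgs2 and Nlrp3 have higher CPM in HAMSAB in all 4 parts, and Il1rn is lower in HAMSAB in the part led by Fscn1 (343 against 666 CPM).

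In the Fscn1 Xcr1 dendritic class Il1b was lower in HAMSAB. It had 105 UMIs in HAMSAB and 101 in HAMS (519 and 736 CPM), a log2 ratio of −0.50 (−0.91 to −0.09). Il6 had 10 and 16 UMIs and a ratio of −1.24 (−2.54 to −0.01), at least 2-fold lower, as were 4.42% of 1946 measured genes in this class. Il1r2 had 12 and 11 UMIs and a ratio of −0.43 (−1.74 to 0.89), and Ptgs2 had 41 and 19 UMIs and a ratio of 0.55 (−0.27 to 1.42). Of the 4 genes not measured by the rule, Il1rn had 1 UMI in HAMSAB and 7 in HAMS, Nlrp3 14 and 4, Acod1 3 and 1, and Il1a 0 and 0. Cells with UMIs of at least 2 of the 8 genes were 9.24% in HAMSAB and 12.4% in HAMS. With at least 500 genes required per cell (54 and 34 cells) the ratio was 0.81 for Il1b, 0.41 for Il1r2 and −0.59 for Ptgs2, each on the other side of 0.

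Ductal-like cells, marked by the duct transcription factor gene Sox9, carried Il1rn and Acod1. Il1rn had 136 UMIs in 55 of 185 HAMSAB cells and 36 UMIs in 21 of 75 HAMS cells, a log2 ratio of 0.72 (0.18 to 1.29). Of the cells with Il1rn, 48 of 55 in HAMSAB and 18 of 21 in HAMS also had Sox9, while the macrophage gene C1qa was seen in 0 of 55 and 0 of 21 and the myeloid gene Lyz2 in 1 of 55 and 1 of 21. Cd74, an antigen presentation gene, was seen in 50 of the 55 and 20 of the 21, against 64 of 130 and 37 of 54 ductal-like cells without Il1rn. Acod1 had 32 UMIs in HAMSAB and 6 in HAMS and a ratio of 1.21 (−0.06 to 2.76), at least 2-fold higher, as were 9.44% of 2003 genes here; in cells thinned to 500 UMIs the ratio was 0.04. By cells, Acod1 was seen in 11.9% of HAMSAB and 5.33% of HAMS ductal-like cells. Of the 22 HAMSAB cells with Acod1, 18 had Sox9, 1 had C1qa and 2 had Lyz2, and of the 4 HAMS cells 4 had Sox9 and 0 had C1qa or Lyz2. Among HAMSAB cells without Acod1, Lyz2 was seen in 0 of 163. Macrophage markers in this class summed to 370 CPM, 4 of 10 detected, in HAMSAB and 148 CPM, 5 of 10 detected, in HAMS, mostly as Apoe (317 and 98.7 CPM).

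Endocrine and lymphoid cells held few UMIs of the 8 genes. In beta-like cells Il1b had 34 UMIs in HAMSAB and 25 in HAMS, a log2 ratio of 1.01 (0.22 to 1.81), where 3.71% of 7655 genes were at least 2-fold higher. This value lay at the mark itself, and over 11 alternative settings it was between 0.52 and 1.19. In delta-like cells it had 2 and 20 UMIs, a ratio of −2.75 (−5.89 to −0.70), where 4.33% of 4317 genes were at least 2-fold lower, and in alpha-like cells 4 and 19 UMIs, a ratio of −1.41 (−3.43 to 0.18), where 5.9% of 4319 were. In delta-like cells 1 HAMSAB cell held both UMIs and 1 HAMS cell held 8 of the 20. T-like cells had 27 and 14 UMIs of Il1b and a ratio of 0.11 (−0.87 to 1.16). Il1r2 had ratios of −0.83 (−2.12 to 0.45) in T-like and 0.18 (−0.99 to 1.30) in beta-like cells. A single HAMS T-like cell held 8 of the 12 Il1r2 UMIs there. Without the cell with the most Il1r2 UMIs in each library, the T-like ratio was 0.34. Shares of cells with an Il1b UMI were between 0.3% and 2.18% in these endocrine classes, and whether free RNA or doublets gave these UMIs was not tested.

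The receptor through which interleukin 1 signals lay mostly in cells with few UMIs of its ligands. Il1r1, a gene of the fixed receptor list singled out after its values were seen, had 703 CPM in HAMSAB and 717 CPM in HAMS beta-like cells, and 517 of the 678 HAMSAB and 779 of the 1061 HAMS Il1r1 UMIs came from this class. Alpha-like cells had 355 and 435 CPM and delta-like cells 90.6 and 121 CPM. Outside the endocrine classes, endothelial-like cells had 425 CPM (9 UMIs) in HAMSAB and 146 CPM (5 UMIs) in HAMS. Ductal-like cells had 75.2 and 210 CPM. Macrophage-like cells had 13.8 and 25.4 CPM and cDC-like cells 5.90 and 15.6 CPM. The accessory chain Il1rap was nearly undetected, with 14 UMIs in all HAMSAB and 12 in all HAMS cells.

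For several pairs of genes, the second was seen more often in cells with the first than in cells without it. In macrophage-like cells Ptgs2 was seen in 43.6% (37.3 to 50.1) of HAMSAB and 37.9% (30.4 to 45.9) of HAMS cells with Il1b, against 20.9% and 20.7% of cells without it. Il1rn was seen in 66.4% and 55.6% of cells with Acod1 and in 37.8% and 35.2% of cells without it, with overlapping intervals in HAMS. In cDC-like cells Il1rn was seen in 12.8% of HAMSAB and 16.1% of HAMS cells with Il1b and in 3.75% and 3.01% of those without. Nlrp3 in macrophage-like cells was seen in 27.2% and 21.7% of cells with Il1b and in 22.1% and 17.9% of cells without, with overlapping intervals. In cDC-like cells it was seen in 24.1% and 12.4% with Il1b and in 11.9% and 9.03% without, with overlapping intervals in HAMS. In cDC-like cells thinned to 500 UMIs the Nlrp3 shares were 20.45% and 8.51% with Il1b and 11.74% and 6.27% without. Il1rn was also seen more often in cDC-like cells with Il1r2, in 11.4% and 15.1%, than in those without, in 5.49% and 5.45%. After thinning to 500 UMIs these shares were 6.94% and 12.6% with and 4.45% and 5.09% without, with overlapping intervals in both libraries. In macrophage-like cells thinned to 500 UMIs the Ptgs2 shares were 42.3% and 31.0% with Il1b and 17.9% and 14.7% without, and the Nlrp3 shares were 17.2% and 21.2% with and 17.9% and 10.3% without. Cells of 1 library are not replicates, so these shares describe the 2 libraries.

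**Figure D5:**
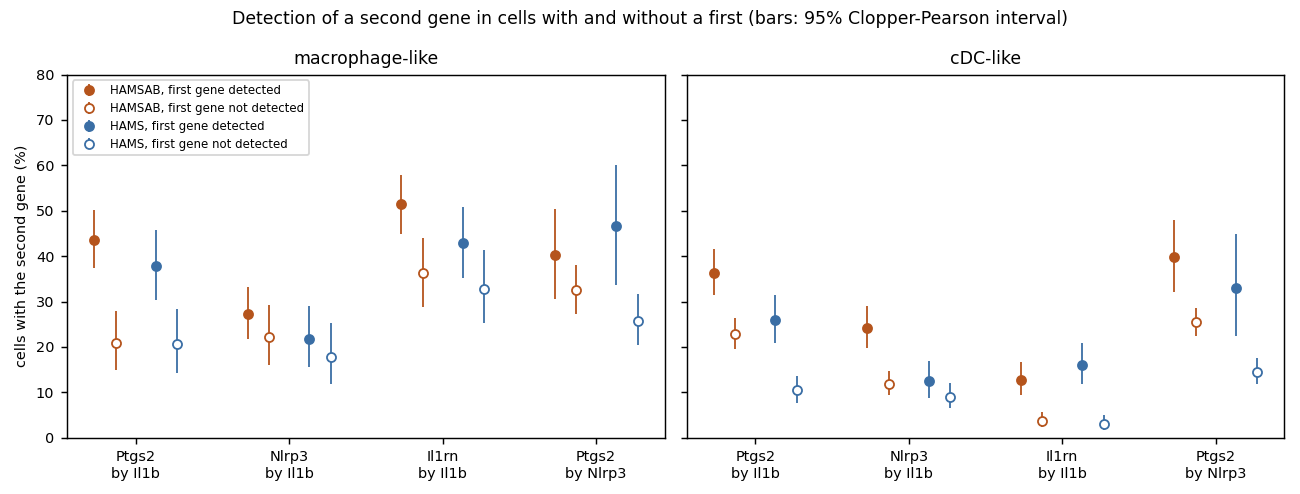
Share of cells, in percent, with a UMI of a second gene among cells with (filled) and without (open) a UMI of a first gene, for HAMSAB and HAMS in 2 classes, with Clopper-Pearson intervals as bars. In HAMSAB macrophage-like cells Ptgs2 was seen in 43.6% of cells with Il1b and 20.9% of cells without it.

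Other genes of the same pathways lay on both sides of 0 in macrophage-like cells. Of 93 pathway genes matched from lists of receptors and adaptors, inflammasome, prostaglandin, interleukin 6, itaconate and sensor genes, 38 were measured there, of which 13 had ratios above 0 and 25 below, with a median of −0.11. Among all genes measured in the class, 49.3% had ratios above 0, with a median of −0.01. The 2-fold mark was passed upward by 2 (Mefv and Alox5ap) and downward by 1 (Tlr1), against 4.76% and 4.31% of all measured genes. Ratios were above 0 for 0 of 4 receptor and adaptor genes, 3 of 7 inflammasome, 2 of 5 prostaglandin, 2 of 6 interleukin 6, 5 of 10 itaconate and 1 of 5 sensor genes. The inflammasome gene Mefv had 32 UMIs in HAMSAB and 10 in HAMS and a ratio of 1.38 (0.32 to 2.57), and the sensor gene Clec4e, which encodes the receptor Mincle, had 133 and 71 UMIs and a ratio of 0.61 (0.18 to 1.05). Nfe2l2, which encodes the antioxidant regulator NRF2, had 101 and 111 UMIs and a ratio of −0.43 (−0.83 to −0.03). Casp1, which encodes the enzyme that cuts the interleukin 1 beta precursor, had 2 and 1 UMIs, too few to compare. The best detected genes of the receptor, inflammasome, interleukin 6, itaconate and sensor lists, Irak4, Nek7, Socs3, Sod2 and Tyrobp, had ratios of −0.35, 0.43, 0.16, 0.06 and −0.14, each with an interval that includes 0, as did Ptges3 at 0.08 and Il18bp at −0.54.

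In cDC-like cells 39 pathway genes were measured, with 23 ratios above 0 and 16 below and a median of 0.05. Among all genes measured in the class, 53.3% had ratios above 0, with a median of 0.04. The 2-fold mark was passed upward by 2 (Hpgds and Traf6) and downward by 1 (Gsdmd). Of all 4830 measured genes 4.6% and 3.08% passed it. Hpgds, which encodes prostaglandin D synthase, had 47 UMIs in HAMSAB and 13 in HAMS and a ratio of 1.45 (0.54 to 2.46), and Ptger4, which encodes a receptor for prostaglandin E2, had 109 and 44 UMIs and a ratio of 0.90 (0.38 to 1.44). Both belong to the prostaglandin list, of whose 19 genes 4 were measured, with a median ratio of 0.56, and 1 passed the 2-fold mark. Gsdmd, which encodes the pore protein gasdermin D, had 14 and 26 UMIs and a ratio of −1.30 (−2.35 to −0.31), and Stat3, a signal carrier of interleukin 6, had 92 and 95 UMIs and a ratio of −0.45 (−0.88 to −0.02). Among the best detected genes of each list, Ptges3 had a ratio of 0.22 (0.10 to 0.33), while Irak4, Gsdme, Jak2, Nfe2l2 and Tyrobp had ratios of 0.08, 0.11, −0.01, −0.19 and 0.02 with intervals that include 0.

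In the Fscn1 Xcr1 dendritic class 16 pathway genes were measured, 6 with ratios above 0 and 10 below, where 52.9% of all measured genes were above 0. Past the 2-fold mark were 0 upward, where 6.27% of all measured genes were, and 2 downward, where 4.42% were. These 2 were Socs3, an inhibitor of interleukin 6 signalling, with 13 UMIs in HAMSAB and 27 in HAMS and a ratio of −1.61 (−2.69 to −0.61), and Tyrobp, a signalling adaptor of myeloid receptors, with 7 and 20 UMIs and a ratio of −2.07 (−3.56 to −0.77). All 4 measured interleukin 6 signalling genes of this class had ratios below 0, but the intervals of Jak1 (−0.41), Jak2 (−0.23) and Stat3 (−0.21) included 0. Ptges3, a prostaglandin E synthase gene, had 336 and 183 UMIs and a ratio of 0.32 (0.05 to 0.58).

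Across the 24 pairs of class and library, which share 2 libraries and differ in depth, the genes whose log2(CPM + 50) was most like that of a member were named among 4866 genes. Il1b was most like Arl5c (Pearson r = 0.935), Tbc1d9 (0.934) and Nlrp3 (0.931), and Nlrp3 was most like Pira2 and Lilrb4a (0.933 each) and Il1b. Il1rn and Acod1 shared Cxcl2, a chemokine gene, as their nearest gene (0.95 and 0.904), and each was second to the other (0.902). Il1r2 was most like S100a4 (0.923) and Havcr2 (0.909), and Ptgs2 most like H2-M2 (0.919) and Adap2os (0.91). Il6 had Nrg1 (0.869) and Calcrl (0.835) nearest. Its r was 0.573 with Ptgs2, 0.157 with Il1b and at most 0.169 with the other members compared. The highest Il6 level lay in the endothelial-like class, from 15 UMIs in 2 HAMSAB cells and 11 UMIs in 3 HAMS cells. Calcrl was among the leading genes of that class. Il1rn and Il1r2, the brakes on interleukin 1, had r = 0.325.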

How the data were processed

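Cells of pancreatic islets from HAMSAB-fed and HAMS-fed NOD mice were measured in 1 library per diet with droplet 3' chemistry, per the labels' protocols. The authors deposited raw UMI counts per gene and barcode, written by Cell Ranger 5.0.0 per the file headers, with no normalization. The submitters' processing notes name Seurat and, as builds, mm10 and GRCm38. The authors also deposited tables of log2 fold changes with p-values and adjusted p-values between the diets, whose test is not given in the sources used here.

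Barcodes under 200 genes or over 20% mitochondrial UMIs were left out (scanpy 1.11.5), in all 394 of 5022 HAMSAB and 167 of 4352 HAMS barcodes. Scrublet marked 4 cells (0.0454%) and was taken not to have worked, so doublets remain. Cells were scaled to 10000 UMIs, log-transformed and clustered together on 2000 variable genes, 30 principal components and 15 neighbours (Leiden resolution 1, igraph 0.11.9), with the 8 genes and 93 pathway genes left out. A cluster took the class with the highest marker score if at least 3 of its markers were seen in 5% of its cells and no other class had more markers among the 10 leading genes. UMIs were summed per class and library and divided by the class total (CPM). Intervals are exact Poisson for CPM, Clopper-Pearson for shares and conditional binomial for ratios, at 95%, for counting error only. "Measured" means at least 20 UMIs over both libraries. The ratio step was tested on simulated counts. List genes were named by the 2 highest and 2 lowest interval bounds nearest 0 and by the highest CPM per list. The members and lists were chosen with earlier results of these data known.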

Additional observations from a re-analysis of the deposited data

Results flagged for a closer look

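Il1b had ratios on both sides of 0 in different classes, and the difference between classes was not tested. Its log2 ratio of HAMSAB over HAMS was 1.01 in beta-like, 0.17 in cDC-like and 0.48 in macrophage-like cells, against −0.50 in the Fscn1 Xcr1 dendritic class and −2.75 in delta-like cells. The beta-like and delta-like values rest on 34 and 25 UMIs and on 2 and 20 UMIs. When cells were classed singly by their markers the delta-like value was 0.44. Il6 likewise had a ratio of 1.97 in macrophage-like cells and −1.24 in the Fscn1 Xcr1 dendritic class, a difference that was not tested either.

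The barcodes removed by the cell filters, 394 in HAMSAB and 167 in HAMS, carried Il1b at 1299 CPM (211 UMIs) in HAMSAB and 604 CPM (40 UMIs) in HAMS, a log2 ratio of 1.10 (0.61 to 1.63). Acod1 had 86.2 CPM (14 UMIs) there in HAMSAB and 0 UMIs in HAMS, at least 1.90-fold higher against a floor of 3 UMIs over the HAMS barcodes.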

How the results depend on the processing

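Of 319 alternative values of 27 member ratios, 300 kept their sign, and with 1 library per diet none has a test. Counted apart, 3 values reversed a ratio that was at least 2-fold apart, and 26 of the others lay beyond the interval of the reported ratio. Of those 3, the values of Il1b in delta-like and Il1r2 in macrophage-like cells also lay beyond it. Some settings changed few or no cells. At most 10% mitochondrial UMIs, for example, kept the same 406 and 301 macrophage-like cells. All 8 macrophage-like ratios stayed above 0 except Il1r2, which was −0.41 with at least 500 genes per cell (44 HAMSAB and 39 HAMS cells). With cells classed by their own markers Il1b was 0.034 in alpha-like and 0.44 in delta-like cells, opposite to the reported sign. Ptgs2 and Nlrp3 in cDC-like cells stayed above 0 in all 15 alternatives (0.54 to 1.44 and 0.54 to 1.31). The Il1b ratio in macrophage-like cells was 1.21 with at least 500 genes and 0.26 by own markers. In cDC-like cells it was −0.032 at Leiden resolution 2, 0.32 by own markers and −0.043, −0.15 and 0.33 in the Mndal, Adap2 and Fscn1 parts.

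Of the member genes measured in macrophage-like cells, 1 of 7 was at least 2-fold higher by own markers (4.43% of all measured genes). At resolution 2 there were 2 of 8 (4.23%), after thinning 2 of 6 (4.86%), at 50 UMIs 1 of 6 (1.77%) and at 10 UMIs 3 of 8 (7.97%). In cDC-like cells 1 of 6 measured members was at least 2-fold higher at resolution 2 (4.18%), 1 of 7 by own markers (4.64%) and 3 of 6 after thinning (5.57%). At 50 UMIs 0 of 6 (1.49%) and at 10 UMIs 0 of 7 (8.13%) were. Macrophage-like pathway genes at least 2-fold higher numbered 0 of 18 at 50 UMIs (1.77% of all genes), 4 of 47 at 10 (7.97%) and 1 of 21 after thinning (4.86%), and 0 of 18 were lower at 50 (1.70%). In cDC-like cells 1 of 23 was higher at 50 (1.49%), 4 of 48 at 10 (8.13%) and 4 of 31 after thinning (5.57%), with 0 of 23 lower at 50 (1.04%) and 3 of 48 at 10 (5.80%). By own markers macrophage-like cells held 19.1% of HAMSAB and 22.4% of HAMS Il1b UMIs and cDC-like cells 34.3% and 32.7%. At resolution 2 cDC-like cells held 27.1% and 35.0%, and with all genes clustered 53.0% in HAMSAB. With at least 500 genes too few reported cDC-like cells remained in a class of that name, so it has no value there. The cause of these shifts was not tested. No paired analysis was possible because each diet has 1 library. Depth limits the genes with few UMIs, whose intervals are wide.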
